A study of Mus musculus with 54 samples.

Results

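The genes Wdfy1, BC035947, Ap1s3, Serpine2, Ccl20 and Pid1 of mouse chromosome 1 are described here across single cells and sorted crypt cells of the small intestine. They were chosen because they lie within about 10 Mb of Mir375, the gene of the microRNA that was deleted, and because their RNA was higher in knockout than in wild type in both sets of single-cell libraries. All 6 are among the 27998 genes of the single-cell tables, which list 179 genes of that 10 Mb window and leave 173 other neighbours. Mir375 itself is not in that gene list, so the deletion could not be checked in the cells. Because the difference between knockout and wild type chose the genes, its values are given below as a description, without a test.

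The series holds 54 mouse samples in 16 groups. The single-cell libraries came from intestinal cells of wild-type mice and of miR-375 knockout mice, both 12 months old and of strain C57BL6/2J, with 1 library of each genotype in set 1 and 1 in set 2. The labels do not say how the knockout was made, nor how many mice stand behind a library. The bulk mRNA libraries were made from Sox9-EGFP Low sorted crypt cells of C57BL/6J mice, 4 libraries each for chow diet, high fat diet, conventionalized mice (germ-free mice given a microbiota) and germ-free mice. Small RNA of the same sorted fraction was used for the microRNA in chow, conventionalized and germ-free mice. No label states an age for the bulk groups, and nothing says whether single-cell replicates came from separate mice, so p-values measure the spread between these libraries.

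A microRNA is cut as a short strand from a hairpin transcript and pairs through its seed, the bases near its 5′ end, with sites in the untranslated end of messenger RNAs, whose stability and translation it lowers. miR-375 is known from endocrine cells, in the gut from hormone-producing enteroendocrine cells. Genes that lie beside a deleted locus share a stretch of chromosome with it, and they need not be its targets. WDFY1 has a FYVE domain, which binds phosphatidylinositol 3-phosphate on early endosomes, and it is known to help the Toll-like receptors TLR3 and TLR4 recruit their adaptor TRIF.

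The hairpin of Mir375 is shown because it places the deleted gene and holds the strand against which the members were searched. RefSeq gives it on the minus strand at chr1:74900658-74900721 of GRCm38.p6, and the capitals mark bases 2 to 8, the seed, of the 3p strand.

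Mir375 hairpin: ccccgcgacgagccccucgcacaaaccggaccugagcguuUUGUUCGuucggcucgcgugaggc

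In the longest annotated 3′ untranslated region (GENCODE, GRCm38) of 5 of the 6 members, the letters GAACAA, which pair with bases 2 to 7 of that strand, were found in Wdfy1 and not in Ap1s3, Serpine2, Ccl20 or Pid1. This does not show that Wdfy1 is the only member with a match. The region of Wdfy1, 3252 bases long, holds the letters at 2 places. The capitals mark the match in each site.

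Wdfy1 first site: ggtaaggaggGAACAAtgaagggttt
Wdfy1 second site: ttctatcagaGAACAAtgtaaagtat

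None of these 5 regions holds CGAACAA, the match to bases 2 to 8. Of all 21707 protein-coding genes with such a region, 27.1% hold GAACAA and 1.01% hold CGAACAA. Among 2258 regions about as long as that of Wdfy1, 58.9% hold GAACAA. The matches are letters in a window and were not tested as sites.

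All 6 members lie on the side of higher coordinates from Mir375. BC035947 is nearest, 3.60 Mb away at chr1:78497026-78512158 on the minus strand. Ap1s3 (chr1:79606876-79671972, minus strand), Wdfy1 (chr1:79702262-79776143, minus strand) and Serpine2 (chr1:79794197-79861180, minus strand) follow each other, with 30.3 kb between Ap1s3 and Wdfy1 and 18.1 kb between Wdfy1 and Serpine2. Ccl20 lies 8.22 Mb from Mir375 at chr1:83116766-83119167 on the plus strand, and Pid1 lies 9.14 Mb away at chr1:84036296-84364180 on the minus strand. Between Mir375 and Wdfy1 the annotation places 39 protein-coding genes. Wdfy1 overlaps Mrpl44 on the opposite strand, and BC035947 overlaps Mogat1 on the opposite strand. The overlap of Wdfy1 and Mrpl44 runs only from chr1:79776018 to 79776143. No label or header says whether reads were counted by strand, so reads within such an overlap cannot be told apart.

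After filtering, the libraries held 1185 cells (wild type, set 1), 1229 (knockout, set 1), 3156 (wild type, set 2) and 3149 (knockout, set 2). Cells with a UMI of Epcam, an epithelial adhesion molecule, and none of Ptprc, the leukocyte antigen CD45, numbered between 1122 and 2234 a library, with 22446049 to 46669018 UMIs (unique molecular identifiers, 1 per captured transcript). Ptprc-positive cells without Epcam numbered 986 and 509 in set 2 but only 12 and 10 in set 1, so leukocyte values rest on set 2. Over all barcodes the median mitochondrial share was 5.62% to 5.90% in set 1 and 37.9% to 40.9% in set 2, and 12 barcodes were shared by the libraries of set 2 and 1 by those of set 1. Levels are given in CPM, UMI counts scaled to a common library total, with 95% exact Poisson intervals that cover counting error only.

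Wdfy1 had the most UMIs of the 6 genes in the Epcam-positive cells of each library, 193 and 725 in wild type and knockout of set 1 and 471 and 2681 in set 2. Its level was 8.45 CPM (95% interval 7.30 to 9.73) in wild type and 32.3 CPM (29.99 to 34.7) in knockout of set 1, and 10.1 CPM (9.20 to 11.05) in wild type and 57.8 CPM (55.7 to 60.1) in knockout of set 2. Both knockout libraries were above both wild-type libraries, and the sets were closer in wild type than in knockout. The ratio of knockout to wild type was 3.82 (3.26 to 4.50) in set 1 and 5.73 (5.19 to 6.33) in set 2. Among the 6974 genes with a mean of at least 10 CPM in these cells, ranked by the smaller of the log2 ratios of the sets, Wdfy1 stood at place 2 with 1.93, behind Hba-a1, a haemoglobin gene of red blood cells, with 4.53 and ahead of Gm8797 with 1.72. This rank and the order of the libraries use the values that chose the gene and support nothing.

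The UMIs of Wdfy1 were spread over many cells. In set 1, 15.8% of 1122 wild-type and 42.9% of 1160 knockout Epcam-positive cells had at least 1. In set 2 these shares were 22.2% of 1618 and 57.5% of 2234. When each cell was thinned to 2000 UMIs, they were 2.05% and 7.67% in set 1 and 1.98% and 11.6% in set 2. The cell with most Wdfy1 UMIs held 11 of the 2681 of the set 2 knockout.

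Leukocytes carried the same order. In the Ptprc-positive cells of set 2, Wdfy1 was at 12.98 CPM (9.19 to 17.8) in wild type and 58.2 CPM (45.1 to 73.9) in knockout, a ratio of 4.48 (2.96 to 6.86). RNA of epithelial cells was present in these cells. The summed epithelial markers, a list that holds Epcam, stood at 4.53% of their Epcam-positive level in wild type and at 7.95% in knockout. The gate leaves no Epcam in Ptprc-positive cells, so these shares are partly fixed by it. Markers of enterocytes stood at 7.06% and 11.4%, and those of Paneth cells at 10.5% and 13.2%. Wdfy1 stood at 129% and 101% of its Epcam-positive level. The part of RNA from epithelial cells in these values of Wdfy1 was not tested. In the few Ptprc-positive cells of set 1, Wdfy1 had 0 UMIs of 147957 in wild type, where 3 UMIs would be 20.3 CPM, and 3 of 131032 in knockout.

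The other members had fewer UMIs. BC035947, a gene without a named function, had 0 UMIs in wild type and 8 in knockout of set 1, and 1 and 45 in set 2. Its knockout levels were 0.356 and 0.971 CPM. The counting interval of the ratio began at 1.74 in set 1, where wild type had 0 UMIs, and in set 2 the ratio was 45.3 with an interval of 7.73 to 1829. Wild-type libraries had next to none of its RNA, and both knockout libraries had it in few cells, 6 of 1160 and 39 of 2234.

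Ap1s3 encodes a small subunit of AP-1, the adaptor that packs cargo into clathrin vesicles at the trans-Golgi and endosomes. Its level was 3.81 CPM (3.05 to 4.70) in wild type and 7.44 CPM (6.35 to 8.66) in knockout of set 1, and 3.96 CPM (3.41 to 4.58) and 5.95 CPM (5.27 to 6.70) in set 2. The genotypes did not overlap, which lies close to the rule that chose the gene and supports nothing. The ratios were 1.95 (1.498 to 2.56) and 1.502 (1.24 to 1.82). Among 11205 genes with a mean of at least 1 CPM, ranked as for Wdfy1, Ap1s3 stood at place 55. Among leukocytes of set 2 the levels were 7.52 CPM (4.71 to 11.4) in wild type and 7.81 CPM (3.57 to 14.8) in knockout, a ratio of 1.04 (0.421 to 2.35).

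Serpine2 encodes protease nexin-1, a secreted inhibitor of thrombin and plasminogen activators. Its levels were 0.438 CPM and 0.846 CPM in wild type and knockout of set 1, from 10 and 19 UMIs, and 0.193 CPM and 0.647 CPM in set 2, from 9 and 30 UMIs. The interval of the ratio included 1 in set 1 (1.93, 0.855 to 4.65) and not in set 2 (3.36, 1.55 to 8.04). In Ptprc-positive cells of set 2 the levels were 2.39 and 2.60 CPM, from 7 and 3 UMIs.

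Ccl20 encodes a chemokine that binds CCR6 and draws dendritic cells and B lymphocytes to the epithelium over lymphoid follicles. Its level was 2.50 CPM (1.89 to 3.23) in wild type and 4.32 CPM (3.504 to 5.27) in knockout of set 1, and 1.54 CPM (1.21 to 1.94) and 3.43 CPM (2.92 to 4.01) in set 2. The ratios were 1.73 (1.24 to 2.44) and 2.22 (1.67 to 2.98). A single knockout cell of set 2 held 66 of the 159 UMIs there, 41.5%. Without the cell with most Ccl20 UMIs in each library, a choice made after seeing the data, the ratio was 1.40 in set 2 and 1.78 in set 1. The share of cells with a UMI was 3.71% in wild type and 3.31% in knockout of set 2, against 4.01% and 6.47% in set 1.

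Pid1 encodes an adaptor with a phosphotyrosine-interaction domain that binds the receptor LRP1 and is known to dampen insulin signalling. It had 3 and 11 UMIs in wild type and knockout of set 1, and 6 and 27 in set 2. These are 0.131 and 0.490 CPM, and 0.129 and 0.583 CPM. The ratio was 3.73 (0.985 to 20.8) in set 1 and 4.53 (1.83 to 13.4) in set 2. No cell of either knockout library held more than 1 UMI of Pid1.

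**Figure D1:**
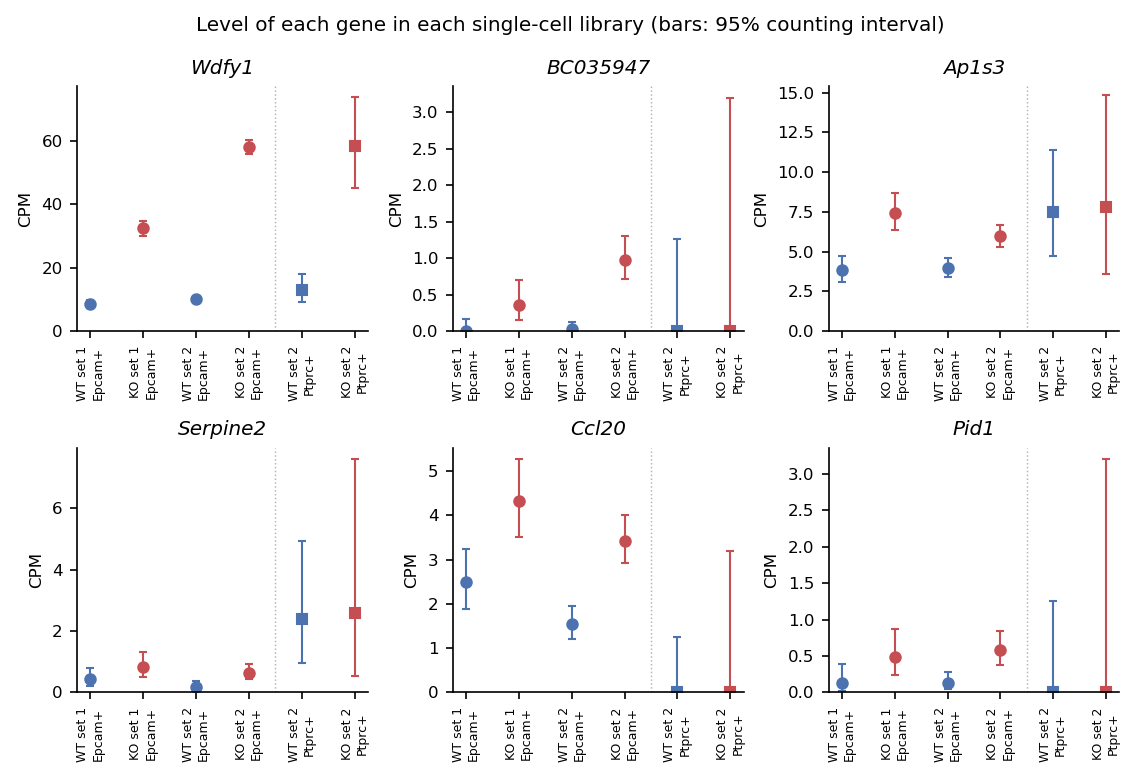
Level of each of the 6 genes in CPM (vertical axis, from 0) in the Epcam-positive cells of 4 libraries (circles) and the Ptprc-positive cells of set 2 (squares), wild type in blue and knockout in red, with 95% counting intervals. Wdfy1 is at 32.3 and 57.8 CPM in knockout Epcam-positive cells against 8.45 and 10.1 CPM in wild type, and stands at 58.2 against 12.98 CPM in Ptprc-positive cells.

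The other genes of the window were examined for the same pattern. Of the 63 other window genes with a mean of at least 1 CPM in Epcam-positive cells, 12 were above wild type in both sets and 21 below in both. Over all 11204 genes of that level with a ratio in both sets, 11.4% were above wild type in both and 29.4% below in both. Their median log2 ratios were 0.02 in set 1 and -0.10 in set 2 for the window and 0.05 and -0.12 for all genes. None of the 63 neighbours was at least 2-fold above wild type in both sets, and over all genes of that level 0.17% were. BC035947, Serpine2 and Pid1 lie under 1 CPM, so the neighbours of that level were examined too, a choice made after seeing the data. Of these 110, 20 had a ratio in both sets, 9 were above wild type in both and 2 at least 2-fold, against 30.6% and 3.65% of the 3507 such genes in all.

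Of the members, 3 reach a mean of 1 CPM, and Ap1s3 had the smallest lower ratio among them, 0.59 on the log2 scale. Just outside at that level were Ikzf2, a transcription factor gene, with log2 ratios of 0.44 and 0.40, and Chpf, which encodes a chondroitin polymerizing factor, with 0.35 and 0.34. Under 1 CPM, where single UMIs set the ratio, the 2 neighbours at least 2-fold higher were Slc19a3, a thiamine transporter gene, with log2 ratios of 1.61 and 2.23, and 1700016L21Rik with 1.02 and 1.59. Of the 36 neighbours of at least 10 CPM, 5 were above wild type in both sets and 17 below in both, beside 6.67% and 32.5% of all genes of that level. The highest was Acsl3, a fatty acid activating enzyme 3.76 Mb away, at 8.59 and 9.58 CPM in wild type and knockout of set 1 and at 12.0 and 16.3 CPM in set 2.

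Mrpl44, a mitochondrial ribosomal protein gene that overlaps Wdfy1 on the other strand, was at 30.5 and 34.1 CPM in set 1 and at 33.5 and 35.2 CPM in set 2. Its log2 ratios were 0.16 and 0.07, beside 1.93 and 2.52 for Wdfy1. Cul3, a ubiquitin ligase scaffold 5.36 Mb away and beyond Serpine2, was at 39.4 and 39.8 CPM and at 70.5 and 71.3 CPM. Mogat1, which overlaps BC035947, was at 0 in both libraries of set 1 and at 0.043 and 0.108 CPM in set 2.

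Close to Mir375 itself, Ihh, the gene of a hedgehog ligand 0.0446 Mb away, was at 21.0 and 21.3 CPM in set 1 and at 28.5 and 29.2 CPM in set 2. Bcs1l, an assembly factor of a mitochondrial complex and the nearest gene of that level on the other side, had log2 ratios of 0.11 and -0.17. Gmppa, Pecr, Farsb and Pnkd, the rest of the 8 highest, had log2 ratios between -0.07 and 0.11. At the other end were Abcb6 with -0.15 and -0.14, Dnpep with -0.32 and -0.14, Atg9a with -0.40 and -0.10 and Aamp with -0.10 and -0.12.

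**Figure D2:**
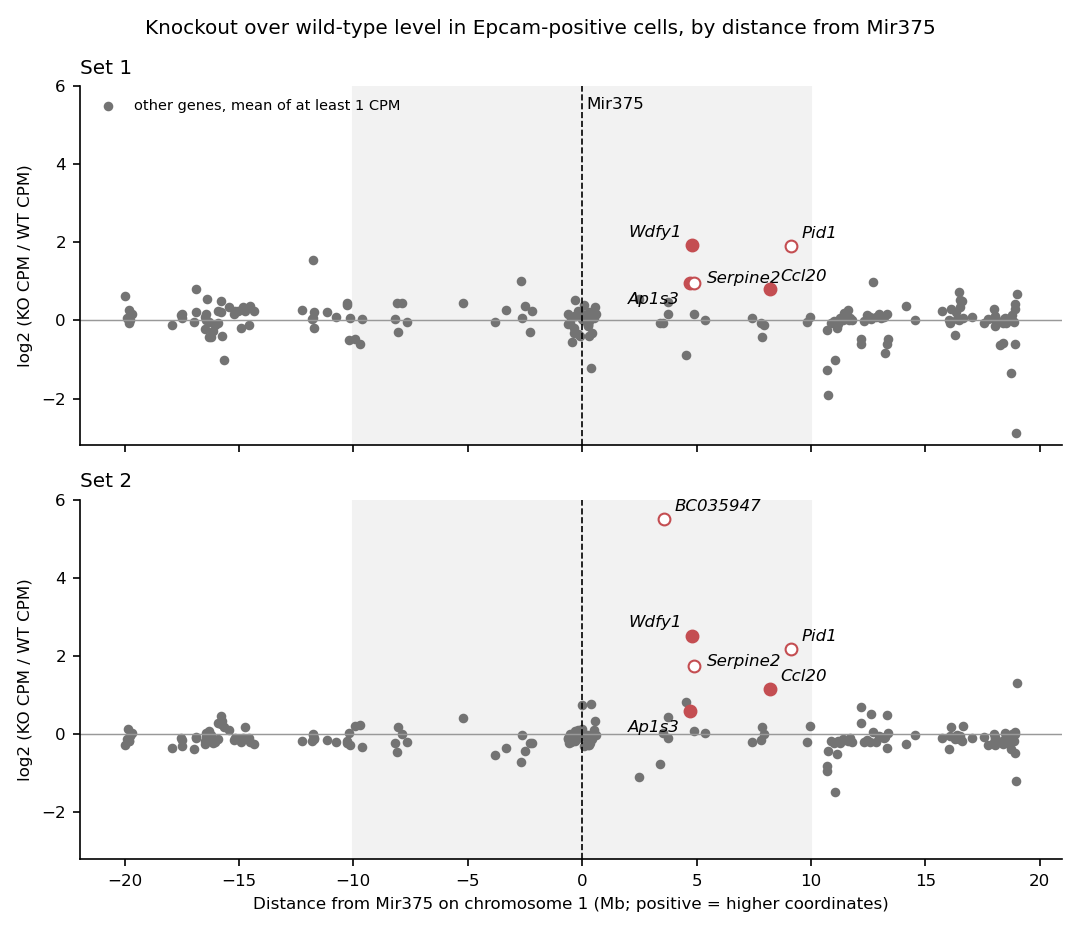
Log2 ratio of knockout to wild-type CPM in Epcam-positive cells (vertical axis) against distance from Mir375 in Mb (horizontal axis), set 1 above and set 2 below. Grey points are other genes with a mean of at least 1 CPM, red points the 6 members (open where the mean is under 1 CPM), and shading marks the 10 Mb window. Wdfy1 stands at 1.93 and 2.52, BC035947 has no ratio in set 1 because wild type had 0 UMIs, and the members were chosen on these values.

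Across genes, edgeR's quasi-likelihood test of knockout against wild type in Epcam-positive cells called 0 of 12973 genes at an adjusted p under 0.05 (0%), with 104 genes at an unadjusted p under 0.05. DESeq2 called 7. In Ptprc-positive cells edgeR called 0 of 6828 genes, with 6 at an unadjusted p under 0.05, and DESeq2 called 0. All 6 members passed the count filter in Epcam-positive cells, and Wdfy1 and Ap1s3 did in Ptprc-positive cells. With the sets as a replicate block, edgeR called 22 genes in Ptprc-positive cells, 10 of them higher in knockout (0.146%). The members are given no test in these fits, and nothing is read from these counts about them.

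Cells were grouped without the chromosome 1 genes near Mir375 and named from marker genes, and a class is called by its markers with "like". Wdfy1 was present in every epithelial class. In wild type its level was lowest in Paneth-like cells, the granule-bearing secretory cells of the crypt base, with 1.20 CPM in set 1 and 2.48 CPM in set 2. Stem-like cells had 1.46 and 6.59 CPM, goblet-like cells 5.32 and 5.71 CPM and cycling-like cells 8.14 and 7.04 CPM. Enteroendocrine-like cells had 8.25 and 22.5 CPM, tuft-like cells 9.41 and 22.8 CPM and enterocyte-like cells, the absorptive cells, 18.1 and 16.6 CPM. Neighbours in this order overlapped over the 2 sets, except that cycling-like cells lay above goblet-like and below enteroendocrine-like cells.

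In knockout the order was much alike. Paneth-like cells had 3.95 and 7.73 CPM, goblet-like 25.2 and 39.4 CPM, stem-like 35.8 and 67.6 CPM and cycling-like 41.9 and 72.4 CPM. Enteroendocrine-like cells had 49.2 and 71.6 CPM, tuft-like 47.6 and 97.0 CPM and enterocyte-like 56.9 and 78.8 CPM. In all 7 classes both knockout libraries were above both wild-type libraries. Set 2 was above set 1 in knockout in each of the 7.

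The ratio of knockout to wild type for Wdfy1 ran from 3.11 in Paneth-like cells of set 2 to 24.5 in stem-like cells of set 1, where wild type had 1 UMI (interval 4.23 to 983). Cycling-like cells had ratios of 5.15 (3.61 to 7.50) and 10.3 (7.53 to 14.4), and enterocyte-like cells 3.14 (2.46 to 4.03) and 4.73 (4.13 to 5.44). Of 34 clusters with at least 20 cells in both genotypes, 33 had a higher Wdfy1 level in knockout. The exception was the B lymphocyte or plasma-like cluster of set 2, with 5 UMIs in 127 wild-type cells and 0 in 46 knockout cells. Classes and clusters are parts of the libraries that chose Wdfy1, so they are not replicates and these counts support nothing. T lymphocyte-like cells of set 2 had 13.4 and 54.5 CPM, a ratio of 4.07 (2.90 to 5.77), and myeloid-like cells had 0 UMIs in 40 wild-type cells and 9 in 46 knockout cells.

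The enterocyte-like class is made of 8 clusters whose shares differ between genotypes. In set 1 the cluster led by Apoa1, Rbp2 and Reg3a had 131 wild-type and 35 knockout cells, and the one led by Fabp6 24 and 72. In set 2 the one led by Apoc3 had 103 and 302. Wdfy1 was at 12.2 to 25.9 CPM in wild type and at 47.6 to 82.2 CPM in knockout over these 8 clusters, with no overlap. These clusters are again parts of the libraries that chose Wdfy1, so the missing overlap supports nothing. The part of the cluster shares in the difference of Wdfy1 was not tested.

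BC035947 was nearly confined to enterocyte-like cells in the cells named here, with 48 of its 53 knockout UMIs there, 7 in set 1 and 41 in set 2. These are 2.20 and 2.52 CPM, while wild-type enterocyte-like cells had 0 of 21162725 UMIs. The wild-type libraries had 2 UMIs of BC035947 in all. Summed enterocyte markers in Epcam-positive cells moved in opposite directions in the sets: 15500 CPM in wild type and 8307 CPM in knockout of set 1, and 12037 and 23290 CPM in set 2.

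Ccl20 in enterocyte-like cells was at 2.18 CPM in wild type and 9.75 CPM in knockout of set 1, and at 1.32 and 7.75 CPM in set 2. The ratios there were 4.47 (2.27 to 9.32) and 5.89 (3.66 to 9.98), and the cell with 66 UMIs is 1 of the 768 knockout cells of set 2. Without that cell, a choice made after seeing the data, the levels in set 2 were 1.32 and 3.69 CPM, from 20 and 60 UMIs, a ratio of 2.81. The other knockout cells of its cluster, which has 54, had no Ccl20 UMI, against 3 UMIs in 47 wild-type cells. The 7 other enterocyte-like clusters of both sets had 1.03 to 30.6 CPM in knockout and 0 to 2.90 CPM in wild type. Of all 8 enterocyte-like clusters, 7 were higher in knockout and 1 was lower. In goblet-like cells Ccl20 went from 3.84 to 6.24 CPM in set 1 and from 2.34 to 1.59 CPM in set 2, and in stem-like cells from 5.84 to 4.77 CPM and from 3.42 to 0.925 CPM. Whether the difference in ratio between classes exceeds the spread was not tested.

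Ap1s3 was in all 7 epithelial classes, from 0.248 CPM in Paneth-like wild-type cells of set 2 to 18.8 CPM in enteroendocrine-like wild-type cells of set 2, the latter from 5 UMIs. Enterocyte-like cells had 3.19 and 5.35 CPM in set 1 and 2.83 and 5.91 CPM in set 2. Serpine2 had 0 to 1 UMI in each library's enterocyte-like cells. In stem-like cells it had 0 and 3 UMIs in set 1 and 2 and 8 in set 2, and in enteroendocrine-like cells 1 and 2, and 0 and 4. Pid1 was highest in wild-type enteroendocrine-like cells of set 2, with 15.004 CPM from 4 UMIs. Enteroendocrine-like cells of set 2 were lower in knockout for Pid1, from 4 to 1 UMI, and for Ap1s3, from 5 to 1 UMI, while stem-like cells there went from 0 to 8 UMIs of Pid1. Counts this low do not order the classes.

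**Figure D3:**
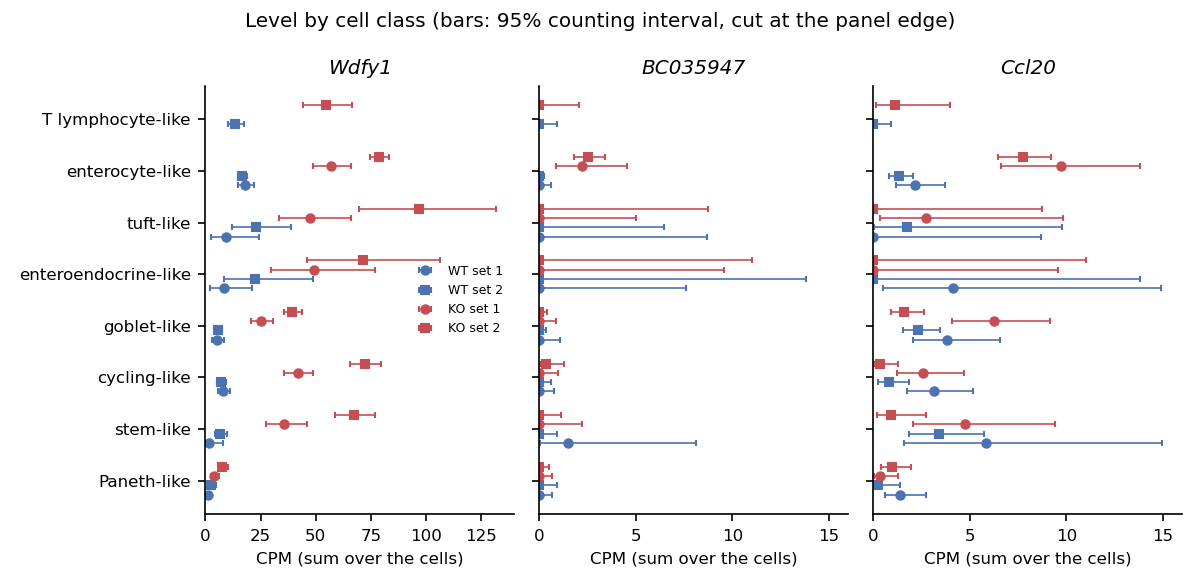
Level in CPM (horizontal axis) of Wdfy1, BC035947 and Ccl20 by cell class (vertical axis), wild type in blue and knockout in red, set 1 as circles and set 2 as squares, with 95% counting intervals cut at the panel edge. Wdfy1 is higher in knockout in all 7 epithelial classes, and BC035947 is at 2.20 and 2.52 CPM in knockout enterocyte-like cells.

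Over the 28 sums of 7 classes and 4 libraries, the genes of at least 10 CPM whose log2 level was most like that of each member were found by Pearson's r among 7605 genes. For Wdfy1 they were Zhx1 (r = 0.72) and Fbxl15 (r = 0.72), for Ap1s3 Phf23 (r = 0.88) and Wiz (r = 0.86) and for Ccl20 Mt2 (r = 0.69) and Mt1 (r = 0.67). For BC035947 they were Mep1a (r = 0.64) and Cyp3a11 (r = 0.63), for Serpine2 Neurog3 (r = 0.70) and Wnk4 (r = 0.69), and for Pid1 Il17re (r = 0.81) and Pam (r = 0.78). The points share libraries and depth, and for the sparse members they rest on few UMIs.

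Whether a member differs between epithelial and blood-derived cells was not used to choose it, and was tested with edgeR over the 4 libraries, each as its own block. Here 5919 of 11805 genes were called (50.1%), 3535 higher in Epcam-positive cells (29.9%) and 2384 higher in Ptprc-positive cells. Of the 3 members that passed the filter, Ccl20 was called, with 385 UMIs in Epcam-positive cells (2.78 CPM) and 0 of 4357504 in Ptprc-positive cells. That is at least 4.04-fold higher, against 3 UMIs over the whole Ptprc-positive group (edgeR adjusted p = 0.0071). Ccl20 passed the filter only through the Epcam-positive cells, so the call is given as a description. With 3 UMIs taken as the limit of a count of 0, the Ptprc-positive cells of set 1 allow up to 20.3 and 22.9 CPM, above the Epcam-positive levels. Those of set 2 allow 1.03 CPM in wild type and 2.60 CPM in knockout, below them.

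Wdfy1 had a log2 difference of 0.44 (SE 0.35, adjusted p = 0.32, edgeR) between Epcam-positive and Ptprc-positive cells, and Ap1s3 of -0.58 (SE 0.36, adjusted p = 0.21, edgeR). Neither passed the test. BC035947, Serpine2 and Pid1 did not pass the filter. Serpine2 was tested in 3 alternatives and was lower in Epcam-positive cells in each: without the filter (log2 -1.95, adjusted p = 0.046, edgeR), without doublet removal (log2 -2.07, adjusted p = 0.028, edgeR) and without the wild-type library of set 1 (log2 -2.27, adjusted p = 0.019, edgeR). Serpine2 had 68 UMIs in Epcam-positive cells (0.492 CPM) and 10 in Ptprc-positive cells (2.29 CPM), and the other pair had 0 in Ptprc-positive cells, where the limit of a count of 0 is above their level.

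Genes that work with the members were counted from lists. Of the 20 genes of TLR3/TLR4-TRIF signalling, 17 were tested between Epcam-positive and Ptprc-positive cells. Of these, 4 were higher in Epcam-positive cells, among them the receptor gene Tlr3 (log2 4.67, SE 0.66, adjusted p = 0.00011, edgeR) and Ticam1, the gene of TRIF (log2 1.16, SE 0.33, adjusted p = 0.013, edgeR). The other 6 called, among them Myd88 and Cxcl10, were higher in Ptprc-positive cells. Of 13 tested AP-1 adaptor genes 7 were higher in Epcam-positive cells, Ap1s1 included (log2 1.30), and 2 lower, Ap1m1 and Ap1s2, the gene of another small subunit (log2 -4.59). Ccr6, the receptor gene of CCL20, was higher in Ptprc-positive cells (log2 -6.45, SE 0.53, adjusted p = 2.1e-06, edgeR).

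Of 16 genes around phosphatidylinositol 3-phosphate and early endosomes 4 were higher in Epcam-positive cells, with Wdfy3 at a log2 of 5.51, and 1 lower, Wdfy4 at -6.19. Of 12 serine protease and serpin genes 9 were higher, Spint1 and Spint2 included, and 3 lower. Of 13 insulin signalling genes 3 were higher, with Lrp1 at 4.92, and 3 lower. Of 12 genes of the follicle epithelium list 2 were higher and 7 lower. The median log2 difference was -0.25 for TLR3/TLR4-TRIF signalling, 0.71 for AP-1, 3.68 for proteases and serpins, 0.20 for the endosome list, -0.28 for insulin signalling and -1.62 for the follicle list, beside 0.13 over all genes tested. Other scalings put the median of all genes at 0.25 and 0.28.

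In the comparison of knockout and wild type none of these lists had a called gene in either gate. As 0 of 12973 and 0 of 6828 genes were called in all, this says nothing about the lists. Their median log2 differences in Epcam-positive cells lay between -0.09 and 0.16, beside 0.01 over all genes. The 2 genes with the highest level in the TLR list, Nfkbia and Tradd, were at 37.0 and 37.1 CPM in wild type and at 64.9 and 36.2 CPM in knockout of set 1, and at 52.97 and 55.8 and at 43.5 and 47.6 CPM in set 2. Those of the AP-1 list, Arf1 and Clta, were at 302 and 294 CPM in wild type and 291 and 270 CPM in knockout of set 1, and at 427 and 406 and at 384 and 407 CPM in set 2.

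In sorted Sox9-EGFP Low cells the members could be followed across diet and microbiota in mice not labelled as knockout. The values are normalized counts, which do not compare genes of different length. In bulk cells, fewer cells of a type and less RNA per cell cannot be told apart. The fraction carried epithelial markers at 97203 to 179419 summed normalized counts in each library, and leukocyte markers of the T lymphocyte list at 35.4 to 523.

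For Wdfy1 the libraries read 144, 111, 133 and 151 on chow and 133, 167, 159 and 89.6 on high fat diet. The groups overlapped, and limma gave a log2 difference of -0.0037 (SE 0.23, adjusted p = 0.99). In conventionalized mice they read 153, 231, 214 and 122 and in germ-free mice 221, 190, 358 and 239. The germ-free mean was 252 ± 73.7 (SD, n = 4) and the conventionalized mean 180 ± 51.4 (SD, n = 4), with overlap and a log2 difference of 0.49 (SE 0.33, adjusted p = 0.39, limma). Conventionalized against chow gave 0.38 (SE 0.26, adjusted p = 0.60, limma). The differences of Wdfy1 did not pass the test, and the groups that share a control are not independent.

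Ccl20 had larger differences. On chow its libraries read 271, 256, 130 and 476 and on high fat diet 60.0, 91.4, 149 and 142, so 1 chow library lay inside the high fat range. The log2 difference was -1.29 (SE 0.41, adjusted p = 0.099, limma) and did not pass. The chow library inside the range, the third, comes from a mouse whose small RNA column names a high fat diet while its labels give chow. Without it the difference was -1.62 (SE 0.35, adjusted p = 0.085, limma), and that of conventionalized against chow -0.90. In conventionalized mice it read 209, 160, 112 and 230 and in germ-free mice 40.1, 117, 9.97 and 71.5, where 1 germ-free library lay above the lowest conventionalized one. The log2 difference was -1.96 (SE 0.64, adjusted p = 0.14, limma), also short of the test, and -1.29 without the third germ-free library. In a fit of all 4 groups that shares 1 estimate of the spread it passed (adjusted p = 0.043). Conventionalized against chow gave -0.58 (SE 0.37, adjusted p = 0.57, limma).

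The start region of Ccl20 is shown because NF-kB, a factor activated by microbial signals, is known to act on this promoter. The values of Ccl20 above did not pass the main test, and a part of NF-kB in them was not tested. It runs over 300 bases from 250 before to 50 after the RefSeq start on the plus strand (chr1:83116516-83116815, GRCm38.p6). Capitals mark overlapping matches, on both strands, to GGG, any 5 bases and CC, letters shared by many NF-kB sites, the first beginning 82 bases before the start.

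Ccl20 promoter: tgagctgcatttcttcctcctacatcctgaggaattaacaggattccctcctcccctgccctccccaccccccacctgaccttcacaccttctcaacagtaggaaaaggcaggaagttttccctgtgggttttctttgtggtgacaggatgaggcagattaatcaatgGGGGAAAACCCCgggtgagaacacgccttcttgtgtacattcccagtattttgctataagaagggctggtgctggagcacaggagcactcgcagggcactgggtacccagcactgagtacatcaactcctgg

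Of all 32851 promoters in the RefSeq table, 50.8% hold that pattern on either strand, and so do those of Ap1s3, Serpine2 and Pid1, the other members in the table. GGGCGG, a GC box, is in those of Serpine2 and Pid1 and in 35.7% of all, and TATAAA is in none of these 4 and in 13.6% of all. The GC content was 52.7% for Ccl20, 62.0% for Ap1s3, 69.7% for Pid1 and 77.7% for Serpine2.

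Pid1 read 72.1, 41.1, 162 and 92.6 on chow and 49.1, 92.6, 39.9 and 46.3 on high fat diet (log2 -0.59, SE 0.42, adjusted p = 0.41, limma). In conventionalized mice it read 28.4, 94.8, 143 and 96.3 and in germ-free mice 321, 112, 268 and 160. The groups overlapped, with a log2 difference of 1.33 (SE 0.52, adjusted p = 0.20, limma), and the call was not made. Markers of enteroendocrine cells moved the same way: their 15 genes summed to 111110 to 285675 normalized counts in conventionalized and 533191 to 1070880 in germ-free libraries. On chow these genes summed to 340212 to 1056780, above the conventionalized range. Pid1 in conventionalized mice against chow had a log2 difference of -0.06 (SE 0.53, adjusted p = 0.97, limma). Markers of stromal or endothelial cells summed to 60.2 to 461 and 417 to 1008. Their part in the difference of Pid1 was not tested.

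Serpine2 read 58.7, 55.02, 164 and 42.8 on chow, 74.3, 87.2, 138 and 118 on high fat diet, 19.6, 57.7, 77.9 and 50.8 in conventionalized and 101, 69.7, 85.2 and 74.4 in germ-free mice. Neither high fat diet against chow (log2 0.55, SE 0.41, adjusted p = 0.43, limma) nor germ-free against conventionalized (log2 0.81, SE 0.50, adjusted p = 0.35, limma) passed. Without the third chow library, the one of doubtful diet, the first was 0.96 (SE 0.28, adjusted p = 0.13, limma) for Serpine2 and -0.27 for Pid1. Ap1s3 was low, at 7.40 to 15.1 on chow and 2.90 to 21.7 on high fat diet (log2 0.30, SE 0.62, adjusted p = 0.81, limma), and under the mean of 10 needed for a test in the other comparisons. BC035947 lay between 0 and 1.63 on chow, 0 and 3.07 on high fat diet, 0 and 11.9 in conventionalized and 0 and 9.39 in germ-free mice, and was tested nowhere.

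**Figure D4:**
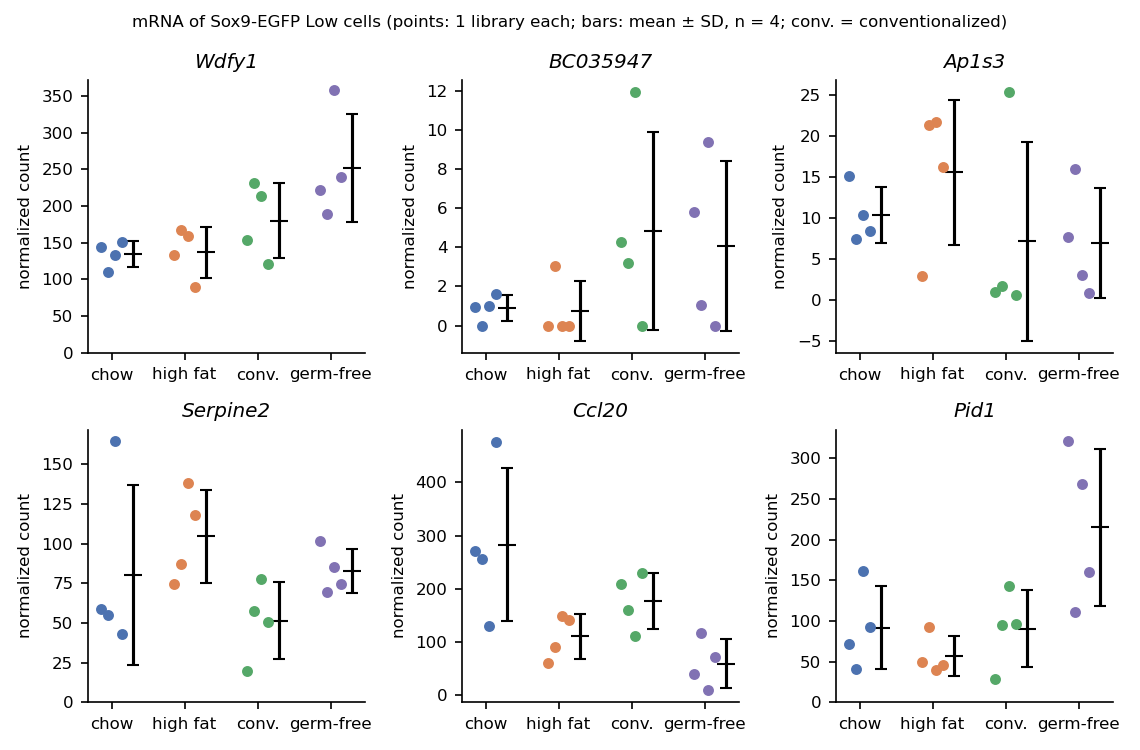
Normalized counts (vertical axis) of the 6 genes in Sox9-EGFP Low cells by group (horizontal axis, "conv." is conventionalized), each point 1 library, with mean and SD (n = 4). Ccl20 has its lowest values, 9.97 to 117, in germ-free mice, and Pid1 its highest, 112 to 321, with overlap between germ-free and conventionalized libraries for both.

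The shares of all genes called were 0.822% for high fat diet against chow (135 of 16421), 2.24% for germ-free against conventionalized (453 of 20214) and 0.0948% for conventionalized against chow (17 of 17941). None of the members tested, 5, 4 and 4 in the same order, was called, also when any 1 library was left out. The counts over all genes hung on single libraries: without the second chow library 2590 were called for diet, without any 1 high fat library 0, and without the first germ-free library 1 for germ-free against conventionalized. Among the other window genes 9 of 106 tested were called between germ-free and conventionalized mice, all higher in germ-free. They include Fev and Cryba2, which lie nearest to Mir375 of the 9 and are known from enteroendocrine cells, with log2 differences of 1.91 and 2.02, and Scg2 and Ptprn, genes of secretory granules, with 2.45 and 2.42. The rest were Resp18 (2.23), Chpf (1.16), Tmem198 (2.56), March4 (2.31) and Dner (2.06). The enteroendocrine markers given above moved with them. The median log2 difference of these 106 neighbours was 0.47, beside 0.11 over all genes.

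Of the 13 tested genes of the follicle epithelium list, 3 were higher on high fat diet and 8 had an unadjusted p under 0.05, as did 4383 of all 16421 genes, with none called. Their median log2 difference was -0.998 beside 0.05 over all genes, and Spib, a transcription factor gene of M cells and B lymphocytes, was at -2.25 (SE 0.46, adjusted p = 0.055, limma). Between germ-free and conventionalized mice 5 of 13 tested genes of the list were higher in germ-free. An unadjusted p under 0.05 (limma) was seen for 6 of them, as for 4072 of all 20214 genes. Their median log2 difference was -0.81 beside 0.11 over all genes. The list had 1 called gene, Anxa5, higher in germ-free (log2 1.67). Tnfrsf11a, the receptor gene for the signal that drives M cells, was at -1.14 (SE 0.41, adjusted p = 0.17, limma). In the protease list F2 and Serpina1a were called, both higher in germ-free mice (log2 2.39 and 2.27). The 5 genes listed for M cells summed to 1113 to 2048 normalized counts in conventionalized and 2685 to 6583 in germ-free libraries. They summed to 1882 to 6419 on chow and 738 to 1968 on high fat diet. In Epcam-positive single cells Ccl9 made most of this sum, 78.1 of 85.4 CPM in wild type of set 1. Gp2 had no UMI there. Ccl9 was also among the leading genes of goblet-like clusters, so the sum does not mark M cells alone. The part of these genes in the values of Ccl20 was not tested.

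The level of the microRNA was read in the same sorted fraction. miR-375-3p was at 55680, 35358, 144628 and 78794 RPM (reads scaled to a common total) on chow, at 86006, 51228, 42327 and 31198 in conventionalized and at 119812, 106618, 198437 and 123624 in germ-free mice. By the numbers in the column names, the conventionalized values are of mice 304, 314, 246 and 270. The mRNA values above are in another order, 246, 270, 304 and 314. The germ-free libraries were all above the conventionalized ones. The log2 difference was 1.44, and exact permutation gave a two-sided p of 0.029, as small as 4 against 4 allows. In the mRNA of these groups, enteroendocrine markers summed to 111110 to 285675 normalized counts in conventionalized and 533191 to 1070880 in germ-free mice. On chow they summed to 340212 to 1056780, while the chow and conventionalized values of miR-375-3p overlapped. The part of these markers in the difference of miR-375-3p was not tested. Beside it stand the log2 differences of the members for germ-free against conventionalized mice, 0.49 for Wdfy1, -1.96 for Ccl20, 1.33 for Pid1 and 0.81 for Serpine2, none of which was called.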

How the data were processed

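Single-cell RNA (10x Genomics), mRNA and small RNA of mouse small intestine were used. The deposited matrices hold UMI counts per gene and cell. Cell Ranger, STAR, Salmon, DESeq2 and mm10 are named in the submitters' processing notes, with no role given, and software 3.0.1 per the file headers of set 2. Values of the mRNA table are a signal, counts that the authors normalized per library, and no source used here says by which method. Values of the small RNA table are RPM, per the file headers (RPMMM).

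Barcodes with at least 500 genes, 1000 UMIs and under 25% mitochondrial counts were kept, likely doublets were dropped by Scrublet score (0.8% for each 1000 barcodes, since the caller itself marked 2 to 37 cells), and cells were gated on at least 1 UMI of Epcam or Ptprc. Summed counts were tested with edgeR 4.0.16 (quasi-likelihood, TMM), mRNA with limma 3.58.1 on log2(value + 1) at a mean of at least 10, both Benjamini-Hochberg adjusted, two-sided. Fold changes of mRNA are on that scale and understate low genes. Clusters came from scanpy (Leiden, resolution 1). Fits were tested on simulated data, where 98% to 100% of genes changed 4-fold were recovered in single-cell and 86.5% to 89.5% in mRNA comparisons. There the changed genes were well counted and the spread between libraries was set to a fixed value, not taken from these data. So these shares do not say how many real changes the fits would call, and a gene not called may still have changed. Unnamed mRNA entries, 381 of 48440 with 0.0338% to 0.0804% of counts, and 4 small RNA columns of no sample were left out.

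Members and gene lists were chosen with earlier results of these data known. Named neighbours are the 8 with the highest smaller ratio, the 4 with the lowest larger ratio and the nearest on each side, at 10 CPM or more. From the lists, called genes are counted and examples named. The alternatives were DESeq2, other scaling, filters, mitochondrial limits, doublets, gates, the replicate block, pseudocounts and leaving out each library. Library totals in the mRNA table were 10688863 to 19124357 normalized counts, and its read depth is not given. The seed match search of BC035947 is not reported here.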

Additional observations from a re-analysis of the deposited data

Results flagged for a closer look

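Of 27 groups of 4 libraries examined for a library far from the others, 3 had one, and chance gives about 1 in 20. Ap1s3 read 25.3 normalized counts in the third conventionalized library, beside 0.588 to 1.74 in the other three. BC035947 read 3.07 in the second high fat library and 0 in the others. Any single value beside zeros is flagged whatever its size, so the rate of 1 in 20 does not apply to it. Serpine2 read 164 in the third chow library, beside 42.8 to 58.7 in the others. The small RNA column of the third chow mouse names a high fat diet although its labels give chow, the group used here, and the third chow mRNA library comes from the same mouse.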

How the results depend on the processing

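Single-cell calls of knockout against wild type rest on 2 libraries a genotype. In Epcam-positive cells the 0 genes called became 7 with DESeq2, 1 without a filter on low counts and 0 to 4 with each library left out. In Ptprc-positive cells the 0 became 6 without the filter and 0 to 15 with a library left out, and 22 with the replicate block that pairs libraries by set (correlation of deviations within a set 0.57 over genes, 0.63 in Epcam-positive cells). Genes called between Epcam-positive and Ptprc-positive cells were 3604 to 6820 with a library left out (5919 with all), 3604 without the wild-type library of set 2, and 6195 with no replicate block. Ccl20 was called each time, with 0 UMIs in Ptprc-positive cells of the main gate. As it passed the filter only through the Epcam-positive cells, these calls are a description too. Where 1 library of a group is left, it is assumed to vary like the others.

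For high fat diet against chow the 135 genes called became 317 without the filter, 33 with all 4 groups in the fit, 271 with the replicate block and 0 to 2590 with a library left out. The 453 of germ-free against conventionalized became 1672 with all groups, 494 with the replicate block and 1 to 684 with a library left out. The 17 of conventionalized against chow became 39 without the filter, 26 with all groups, 165 with the replicate block and 0 to 6 with a library left out. The cause was not tested. Replicate numbers of mRNA groups did not pair the libraries, whose deviations correlated at -0.35 to 0.46, and no member was called with the block there. The difference of miR-375-3p ranged from 1.22 to 1.71 with a library left out, with an exact permutation p of 0.057, the smallest that 4 against 3 allows.

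Ccl20 in germ-free mice passed with all groups in the fit and in none of the other 14 alternatives. Ap1s3 in Ptprc-positive cells fell below 0 without the knockout library of set 1 (log2 -0.43, 0.19 with all). The few UMIs of BC035947, Serpine2 and Pid1 limit their ratios, and the 12 and 10 Ptprc-positive cells of set 1 leave leukocyte values to set 2.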
